A study of Homo sapiens with 12 samples.

Results

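The genes described here lie in the middle and proximal part of the short arm of chromosome 11 (11p), from a first probe at 12958217 to a last probe ending at 46407109 on build NCBI36, a stretch of 33.4 Mb. Every gene name whose probe the scanner files place inside the stretch was taken, except MYOD1 and LDHA, and each gene was read from its brightest probe. This gave 240 genes of 30238 gene names on the array. The stretch was picked because many of its genes were higher in the knockdown clone, so the 2 comparisons with that clone are described here without a test. In what follows, a value against CON or against WT is the log2 ratio of KD1 over that culture unless another pair is named. Of the 240 genes, 134 had a probe well above background in both dyes on every array, and these are called measured. A further 50 passed on some arrays and 56 on none.

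The arrays compared 3 cultures of Rh30, a human alveolar rhabdomyosarcoma line that carries the PAX3-FKHR fusion. WT was the untransfected parental line, grown without puromycin. CON was a single clone with a retroviral vector for a control hairpin RNA, and KD1 was a single clone with the same vector holding a hairpin against the PAX3-FKHR junction; both clones were kept in puromycin at 1 μg/mL. RNA was taken after 24 h of growth from 2 replicate cultures of each, and every pair of cultures was hybridized with a dye swap. This gave 12 arrays on 3 slides, 4 arrays for each of KD1 vs CON, KD1 vs WT and WT vs CON. All WT vs CON arrays were on slide 1, the KD1 arrays of replicate 1 on slide 2 and those of replicate 2 on slide 3. Slide and replicate therefore cannot be told apart in the KD1 comparisons. Since KD1 is 1 clone, an effect of the knockdown and a difference that this clone carries for another reason cannot be told apart. Nothing in the labels says that the replicates are more than separate cultures of one clone, so p-values here measure only the spread between such cultures, part of which may be technical.

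Band 11p holds the clock genes CRY2 and BMAL1 (ARNTL on the array), the muscle LIM protein gene CSRP3, the serum amyloid A cluster, catalase, the neurotrophin gene BDNF, and many housekeeping genes for translation, vesicle traffic and peroxisomes. The arrays measured RNA and not DNA. In a bulk RNA sample, fewer cells that express a gene and less of its RNA per cell cannot be told apart.

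Across the series, between 71.1% and 73.6% of gene probes were well above background in Cy3 and between 64.4% and 67.8% in Cy5, and 0 spots were saturated. All 7 myogenic markers (MYOD1, MYOG, MYF5, DES, CHRNA1, CHRND and CDH15) were measured in every culture, as were 2 of 5 fibroblast markers (COL1A1 and PDGFRB), 2 of 4 epithelial markers (KRT8 and KRT18), 2 of 4 immune markers (CD3E and CD14) and 2 of 3 endothelial markers (PECAM1 and VWF). The leukocyte gene PTPRC and the fibroblast gene LUM were above background on no array. VWF was higher in KD1, by 1.99 against CON and 2.22 against WT, while the other measured endothelial marker, PECAM1, had -0.27 and 0.26. KRT18 had -0.12 against CON and -1.14 against WT. The part of all these markers in the 11p values was not tested. The brightest PAX3 probe had log2 ratios of -0.39 and -0.46 against CON and of -0.45 and -0.33 against WT, and the brightest FOXO1 (FKHR) probe had -0.26 and -0.58 and then -0.79 and -0.41. Another PAX3 probe, farther 3′ in the gene than the other PAX3 probes, differed between replicates. It had 0.16 and -0.33 against CON and 0.26 and -0.15 against WT. The remaining PAX3 probe and the other FOXO1 probe were lower in KD1 in every replicate value. Those probes may read the unfused alleles, also or only. Which of them lie in the part of each gene kept in the fusion was not tested.

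SAA1 and SAA2 are shown first at the level of sequence, because they were high in KD1 together and their probes are alike. The 60-base probes overlap by 49 bases, of which 43 are the same and 6 differ (87.8% identity). The differing bases are in capitals.
SAA1: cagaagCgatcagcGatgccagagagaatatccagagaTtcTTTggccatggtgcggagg
SAA2: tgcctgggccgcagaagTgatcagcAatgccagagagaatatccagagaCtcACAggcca
With this likeness, RNA of one gene may bind the probe of the other, and their values are not independent.

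Promoters are shown for a gene that was higher in KD1 by nearly the same amount in all 4 replicate values (PEX16), one with a larger mean difference (ALKBH3) and 2 that were lower in KD1 (TP53I11 and KCNC1). The sequences are from RefSeq on GRCh38.p14 and run from 250 bases before the start of the gene to 50 bases after it, 5′ to 3′. Capitals mark GGGCGG, the GC box, the E-box CANNTG and the homeodomain core ATTA, each searched on both strands.
PEX16, chr11:45917828-45918127, minus strand: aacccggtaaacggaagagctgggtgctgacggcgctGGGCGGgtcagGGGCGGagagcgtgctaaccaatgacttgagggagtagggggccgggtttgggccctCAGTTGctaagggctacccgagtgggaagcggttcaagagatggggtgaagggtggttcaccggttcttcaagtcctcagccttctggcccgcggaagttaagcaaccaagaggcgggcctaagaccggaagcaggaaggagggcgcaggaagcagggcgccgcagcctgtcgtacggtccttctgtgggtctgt
ALKBH3, chr11:43880581-43880880, plus strand: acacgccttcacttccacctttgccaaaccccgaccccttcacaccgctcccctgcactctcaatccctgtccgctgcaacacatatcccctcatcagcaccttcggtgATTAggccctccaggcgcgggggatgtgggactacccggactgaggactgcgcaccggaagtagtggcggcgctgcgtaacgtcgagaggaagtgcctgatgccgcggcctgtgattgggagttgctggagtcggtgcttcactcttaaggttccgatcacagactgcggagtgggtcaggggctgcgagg
TP53I11, chr11:44950834-44951133, minus strand: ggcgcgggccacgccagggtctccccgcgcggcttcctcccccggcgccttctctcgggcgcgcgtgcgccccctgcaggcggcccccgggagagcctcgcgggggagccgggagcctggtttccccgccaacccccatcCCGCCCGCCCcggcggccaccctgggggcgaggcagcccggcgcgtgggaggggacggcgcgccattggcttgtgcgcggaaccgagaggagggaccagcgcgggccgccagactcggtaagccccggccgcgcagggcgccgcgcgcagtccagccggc
KCNC1, chr11:17734531-17734830, plus strand: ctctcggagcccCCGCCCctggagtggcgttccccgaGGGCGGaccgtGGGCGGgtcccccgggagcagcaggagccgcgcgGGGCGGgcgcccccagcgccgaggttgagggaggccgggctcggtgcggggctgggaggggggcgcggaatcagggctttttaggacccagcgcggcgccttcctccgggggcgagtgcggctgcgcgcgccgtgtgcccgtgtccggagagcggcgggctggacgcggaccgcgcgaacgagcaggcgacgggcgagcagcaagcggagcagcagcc
A RefSeq promoter was matched for 79 of the 134 measured genes. GGGCGG was present in 55 of them (69.6%), CANNTG in 47 (59.5%) and ATTA in 25 (31.6%). Among 10053 promoters of other genes measured on these arrays the shares were 69.0%, 60.3% and 36.1%, and over all 35116 promoters 45.0%, 68.7% and 50.2%. The 11p promoters thus held these letters about as often as those of other measured genes. GC content was 81.0% for TP53I11 and 78.3% for KCNC1, against 62.7% for PEX16 and 61.7% for ALKBH3.

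The measured 11p genes were higher in KD1 than in either other culture by a small common amount. Their median log2 ratio was 0.28 against CON (replicates 0.26 and 0.30), which is 1.22-fold, and 0.31 against WT (replicates 0.35 and 0.29), which is 1.24-fold. Over 17254 other measured genes the medians were -0.01 and 0.01. In WT vs CON the 11p median was -0.08 (replicates -0.18 and -0.00), against -0.02 (replicates -0.06 and 0.00) for the other genes. The 11p median was above that of the other genes on all 8 KD1 arrays, in both dye orientations, by between 0.24 and 0.35.

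**Figure D1:**
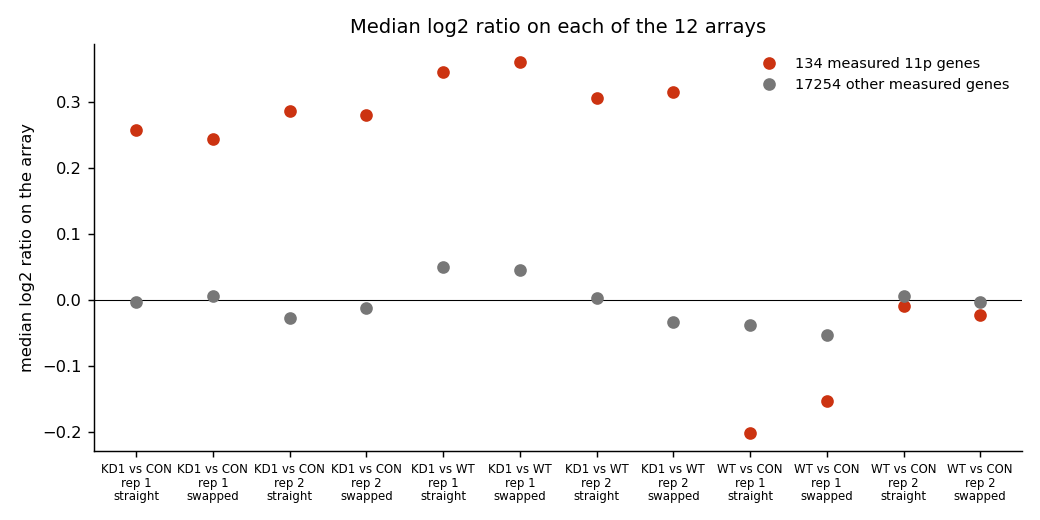
Median log2 ratio (y axis) on each of the 12 arrays (x axis) for the 134 measured 11p genes and the 17254 other measured genes. The 11p medians lie between 0.24 and 0.36 on the 8 KD1 arrays and between -0.20 and -0.01 on the 4 WT vs CON arrays, while the other genes stay between -0.05 and 0.05.

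Of the 134 genes, 60 (44.8%) were higher in KD1 in all 4 replicate values, against 14.9% of other measured genes, and 7 (5.22%) were lower in all 4, against 15.3%. In KD1 vs CON, 82 were higher in both replicates (61.2%, against 34.1% of other genes), and against WT 80 were (59.7%, against 29.0%). Since the stretch was chosen on these 2 comparisons, which share the KD1 extracts, the shares describe the choice and are no further evidence of it. The 2 replicate values of a gene differed by a median of 0.18 against CON and 0.40 against WT.

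**Figure D2:**
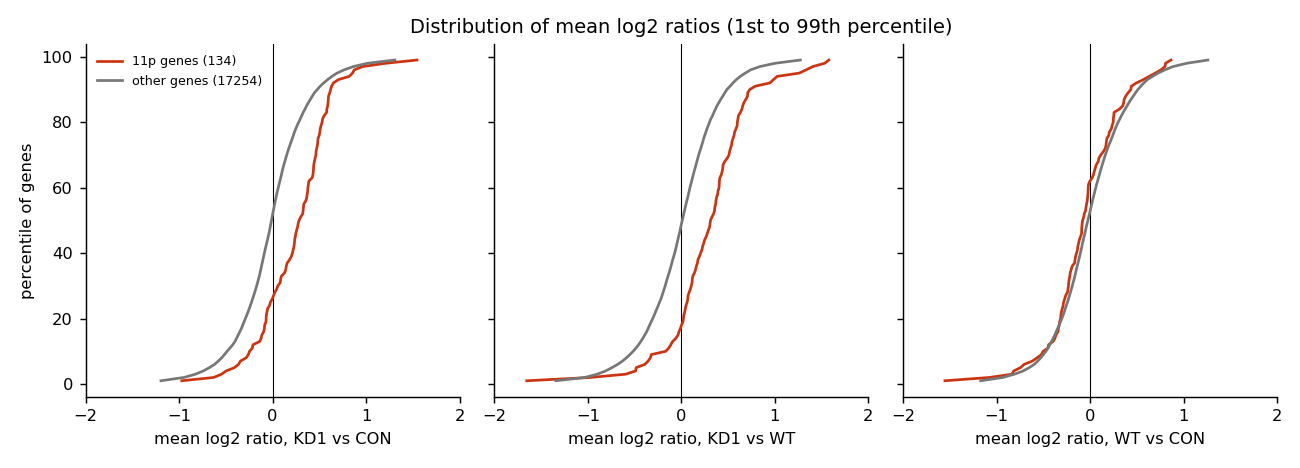
Percentiles of the mean log2 ratio (x axis, n = 2 replicates per gene; y axis, percentile) for 134 measured 11p genes and 17254 other genes in the 3 comparisons. The 11p curve is displaced to the right against CON and WT, with quartiles of -0.02 and 0.49 and of 0.06 and 0.55, and runs close to the other genes in WT vs CON.

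Along the chromosome the shift was uneven. In 5 groups of 26 or 27 neighbouring genes, the median against CON was 0.35, 0.29, 0.20, 0.44 and 0.31 from the lower to the upper edge, and against WT 0.37, 0.31, 0.35, 0.37 and 0.23. A running median of 11 genes against CON stood at 0.43 at CSRP3, 6.21 Mb from the lower edge, and at 0.60 at DKFZP564C152, 30.89 Mb from it. Between SLC6A5 at 7.68 Mb and A_24_P221057, a probe with no gene name at 16.75 Mb, it lay from -0.10 to -0.05; this gap was picked out after its values were seen. In KD1 vs WT the running median stood at 0.03 at SLC6A5 and 0.45 at A_24_P221057. In WT vs CON it stood at -0.05 and -0.34 at these genes and at 0.25 at DKFZP564C152, so the running medians of the cultures without the knockdown also moved apart along the stretch, by up to about the size of the shift. E2F8, which encodes a cell cycle repressor, lies just before that low stretch, 6.25 Mb from the lower edge, and had -0.26 ± 0.08 against CON and -0.13 ± 0.01 against WT (SD, n = 2, as for all values of this kind here).

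**Figure D3:**
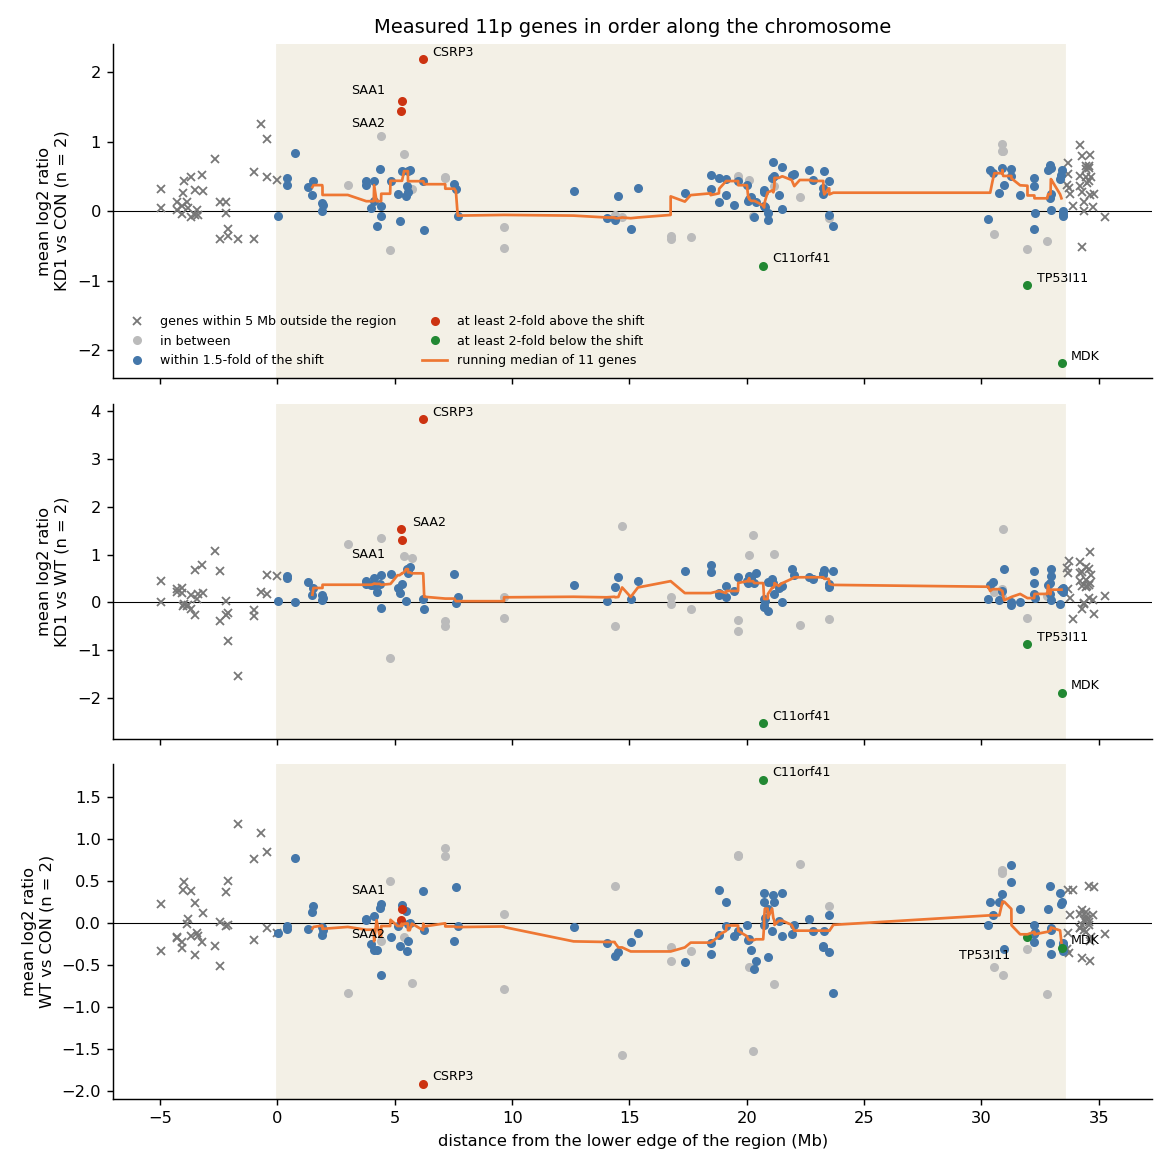
Mean log2 ratio (y axis, n = 2) of each measured 11p gene against its distance from the lower edge of the stretch (x axis, Mb), in the 3 comparisons; crosses are genes within 5 Mb outside it and the line is the running median of 11 genes. The line stays above 0 over most of the stretch in both KD1 comparisons, falls to -0.10 near LGR4 against CON, and in WT vs CON runs between -0.34 near KIF18A and 0.25 near ALKBH3.

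The genes next to the limits of the stretch did not mark a step at either end. Just inside the lower edge, CR594735 had -0.07 ± 0.00 against CON and 0.03 ± 0.19 against WT, and ARNTL, a clock activator, 0.39 ± 0.40 and 0.51 ± 0.58. Just outside it, TEAD1, a transcription factor of the Hippo pathway, had 0.45 ± 0.16 and 0.55 ± 0.28, and AK128814 had 1.04 ± 0.03 and 0.17 ± 0.39. At the upper edge, the last members inside were RPS10, at 0.01 ± 0.25 and 0.31 ± 0.08, and A_32_P78575, at -0.03 ± 0.10 and 0.26 ± 0.46. Their probes overlap (46407010 to 46407069 and 46407050 to 46407109), so they are not separate readings of that edge. AMBRA1, a little further in, had 0.59 ± 0.07 and 0.28 ± 0.04. The first genes outside were HARBI1, at 0.38 ± 0.08 and 0.71 ± 0.07, and KIAA0652, at 0.54 ± 0.01 and 0.61 ± 0.02. In the first 5 Mb beyond the upper edge 27 measured genes had medians of 0.40 and 0.37, at least as high as within the stretch. The last 5 Mb before the lower edge (32 genes) had 0.13 and 0.11, lower than the 0.35 and 0.37 of the first group of neighbours inside it. All 154 measured genes of chromosome 11 below the stretch had 0.06 and 0.07, all 644 above it -0.17 and -0.12, and 16356 genes of the other chromosomes -0.01 and 0.01. Chromosome 13 genes had a higher median than 11p against CON (0.39), but -0.12 against WT.

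Genes with a RefSeq accession carried more of the shift than the others. The 93 measured RefSeq genes had medians of 0.36 against CON (1.29-fold) and 0.38 against WT (1.30-fold). The 41 measured genes with another accession or only a probe name had 0.10 and 0.18. They include RPS10, the name of a ribosomal protein gene, and RPL36AP40, the name of a copy of one. RPL36A, another ribosomal protein name, was also placed in the stretch by its probe position. Whether these probes read RNA from elsewhere in the genome, in part or in whole, was not tested. The dimmest of 3 equal groups by signal had a lower median against CON (0.14) than the middle (0.37) and the brightest (0.35), and the order against WT was 0.18, 0.40 and 0.31. The 106 genes that were not measured in every culture had -0.02 and 0.11. Of the measured genes, 35 had another measured probe in the stretch; those 51 extra probes had medians of 0.28 and 0.43, and no second probe differed by 1 or more on the log2 scale from the brightest in either comparison.

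A gene was said to follow the shared shift when its mean was within 1.5-fold of the 11p median in both KD1 comparisons. By that rule 101 of 134 genes (75.4%) followed it, and 76.3% of all measured genes were as close to the median of all, so the 11p genes were about as tightly grouped as genes in general. PEX16, needed to form peroxisome membranes, was higher by 0.62 ± 0.03 against CON and 0.71 ± 0.00 against WT. Its log2 ratio in WT vs CON was -0.09 ± 0.02. A gene lay above the shift when both means exceeded the 11p median by 1 or more (2-fold) with all 4 replicate values over their own medians, and below it by the mirror rule. Of the measured genes, 3 lay above (2.24%, where the same rule held for 0.604% of all measured genes around their own median) and 3 below (2.24%, where it held for 0.713%). The remaining 27 were in between.

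CSRP3 lay farthest above. It encodes a LIM protein of the sarcomere that takes part in muscle differentiation. Its probe (chromosome 11, 19160626 to 19160685, minus strand) had log2 ratios of 1.31 and 3.07 against CON and of 3.12 and 4.55 against WT, means of 2.19 ± 1.24 (4.56-fold) and 3.83 ± 1.01 (14.2-fold). After separate-channel normalization, its log2 signal was 7.11 and 8.08 in the WT extracts, 8.97 and 9.78 in CON, and 10.35 and 12.90 in KD1. The 3 cultures did not overlap, with CON between WT and KD1. Of the muscle markers, DES was at 0.50 and 0.74 in the same comparisons and MYOG at -1.14 and 0.60, MYF5 at -0.42 and -1.92, CHRND at 0.44 and 0.65, and the remaining 3 lay between -0.31 and 0.07; their part in the CSRP3 result was not tested.

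SAA1 and SAA2 encode acute-phase apolipoproteins that are known from liver and inflamed tissue. SAA1 (18247444 to 18247886, the span its probe covers) had 0.45 and 2.73 against CON and 1.19 and 1.44 against WT. SAA2 (18223604 to 18224056) had 0.56 and 2.34 and then 1.36 and 1.70. A second SAA2 probe (18244884 to 18244943) was above background on no array, with means of -0.10 ± 0.44 against CON and -0.13 ± 0.06 against WT. By these positions it lies nearer to the SAA1 probe than to the brighter SAA2 probe, and which gene it reads was not tested. How much of the signal of the brighter SAA2 probe came from SAA1 RNA was not tested. In both genes the KD1 extracts were above all WT and CON extracts, although CON itself spread widely: SAA1 had log2 signals of 7.62 and 6.19 in CON, 6.70 and 7.49 in WT, and 8.07 and 9.05 in KD1. SAA2 had 7.05 and 6.20 in CON, 6.27 and 7.01 in WT, and 7.63 and 8.71 in KD1. Neither gene met the rule without replicate 2, which left CSRP3 alone above the shift, with 1 gene. SAA1 just reached the rule against WT, where its mean was 1.00 over the 11p median.

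ABCC8 and ALKBH3 exceeded the 11p median by over 2-fold against WT (log2 1.03 and 1.23) but not against CON (0.80 and 0.59), and so met the rule at 1.5-fold only. ABCC8, the sulfonylurea receptor subunit of a potassium channel, had 0.80 and 1.37 against CON and 1.17 and 1.52 against WT. ALKBH3, a demethylase that repairs alkylated nucleic acid, had 0.67 and 1.07 and then 1.49 and 1.59. The ALKBH3 extracts were at 11.13 and 11.21 in KD1, 10.45 and 10.11 in CON, and 9.65 and 9.62 in WT, again with no overlap. Its promoter, shown above, differs from that of PEX16 in holding an ATTA and neither of the other letter patterns.

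MDK lay farthest below against CON. It encodes midkine, a heparin-binding growth factor. Its only probe in the stretch (46361807 to 46361866) had -2.96 and -1.40 against CON and -2.12 and -1.67 against WT, means of -2.18 and -1.90, which are 4.54-fold and 3.72-fold lower in KD1. The log2 signal was 10.45 and 11.22 in KD1, 13.49 and 12.82 in CON, and 12.54 and 13.00 in WT. All KD1 values were below those of the other cultures, which overlapped. The genes on each side of it followed the shift: DGKZ had 0.53 ± 0.06 against CON and 0.27 ± 0.26 against WT, and AMBRA1, an autophagy regulator, 0.59 ± 0.07 and 0.28 ± 0.04.

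TP53I11, a gene named for its induction by p53, was lower by a similar amount in every replicate. Its brightest probe (44911036 to 44911095) had -1.09 and -1.04 against CON and -0.78 and -0.98 against WT. A second probe (44915690 to 44916342) had means of -1.73 ± 0.09 and -1.13 ± 0.13. TSPAN18, a tetraspanin gene next to it, had -1.07 and -0.02 against CON and -0.40 and -0.25 against WT and was below the shift at 1.5-fold but not at 2-fold. KCNC1, a voltage-gated potassium channel gene, had -0.58 and -0.52 and then -1.47 and -0.85. Its mean lay over 2-fold below the 11p median against WT but not against CON, where it was -0.84 from it.

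C11orf41 (now KIAA1549L) met the rule for lying below, but its replicates disagreed. They were 0.16 and -1.72 against CON and -2.09 and -2.98 against WT. The log2 signal was 7.65 and 7.04 in KD1, 7.42 and 8.83 in CON, and 9.80 and 9.96 in WT, so that KD1 and CON overlapped and WT stood apart. Without replicate 2 its KD1 vs CON value was 0.16 and 2 genes were left below the shift.

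**Figure D4:**
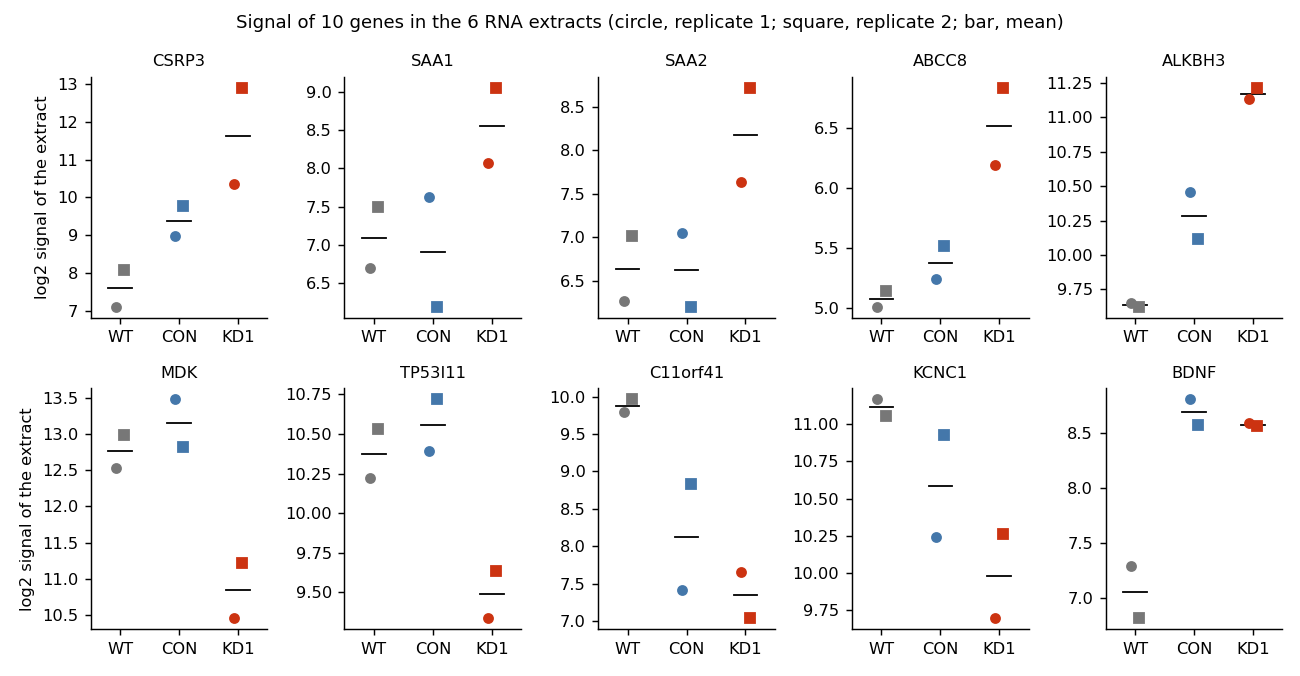
Log2 signal after separate-channel normalization (y axis, own scale for each gene) in the 2 WT, 2 CON and 2 KD1 extracts (x axis) for 10 genes; circles are replicate 1, squares replicate 2 and bars the mean. CSRP3, ABCC8 and ALKBH3 have KD1 above CON above WT with no overlap, MDK and TP53I11 have KD1 below both, and BDNF has WT below both.

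The members are described next by role, from lists of members chosen with these data known. Differences between the lists were not tested, and their counts stand beside the 44.8% of all measured 11p genes (14.9% of other genes) that were higher in all 4 replicate values and the 75.4% that followed the shift. All 13 measured genes for membrane traffic and organelles and all 11 for RNA, protein synthesis and degradation stayed within 1.5-fold of it, with medians of 0.47 and 0.38 and of 0.43 and 0.49 against CON and WT. In the first group 10 of 13 were higher in all 4 replicate values; TSG101, of the endosomal sorting machinery, had 0.37 ± 0.16 and 0.70 ± 0.29, and RCN1, a calcium-binding protein of the endoplasmic reticulum, 0.47 ± 0.14 and 0.12 ± 0.67. In the second group 8 of 11 were; RPS13, of the small ribosomal subunit, had 0.15 ± 0.05 and 0.52 ± 0.04, and EIF3M, a translation initiation subunit, 0.44 ± 0.06 and 0.54 ± 0.11.

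Of 13 measured genes for mitochondria and metabolism, 9 were higher in all 4 values and 12 followed the shift, with medians of 0.53 and 0.57. CAT, which encodes catalase, had 0.64 ± 0.07 and 0.34 ± 0.17, and HSD17B12, of fatty acid elongation, 0.63 ± 0.13 and 0.24 ± 0.77. Of 12 transcription factor and chromatin genes, 8 were higher and 1 was lower in all 4 values (medians 0.37 and 0.42). GTF2H1, a TFIIH subunit, stood at the upper end with 0.82 ± 0.17 and 0.97 ± 0.07, and ELP4, an Elongator subunit, had 0.49 ± 0.26 and 0.15 ± 0.00. Both clock genes were higher in all 4 values: CRY2, a clock repressor, had 0.67 ± 0.02 and 0.17 ± 0.24, and the values of ARNTL are given above.

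In the lists of surface and matrix genes, of channel, hormone and neuronal genes and of signalling genes, 5 of 10, 2 of 6 and 8 of 13 measured genes followed the shift. Of 10 measured cell surface and matrix genes, 2 were higher and 1 was lower in all 4 values, with medians of 0.24 against CON and -0.04 against WT. The metastasis suppressor CD82 had 0.23 ± 0.04 and 0.02 ± 0.50, and the heparan sulfate polymerase gene EXT2 had 0.51 ± 0.00 and -0.00 ± 0.57. Of 18 genes for channels, hormones and neuronal functions 6 were measured, and their medians were -0.06 and 0.34. NAV2, a neuron navigator gene, had 0.50 ± 0.51 and -0.39 ± 0.56. Of 13 measured growth and survival signalling genes, 7 were higher and 3 were lower in all 4 values and 2 lay below the shift (medians 0.15 and 0.37). HIPK3, a protein kinase gene, had 0.14 ± 0.06 and 0.61 ± 0.47, and CCDC34 had -0.12 ± 0.42 and 0.31 ± 0.28. Of the muscle genes, CSRP3 and SOX6 were measured; SOX6, a repressor of slow fibre genes, had 0.38 ± 0.42 and 1.23 ± 1.24. MRGPRX4, a sensory receptor gene and the measured one of 4 in its family, had -0.14 ± 0.01 and 0.20 ± 1.03.

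WT vs CON asks whether the 11p genes already differed between the cultures without the knockdown. The arrays of that comparison had no part in choosing the stretch, but their extracts were also hybridized against KD1. Within a replicate, WT vs CON was nearly KD1 vs CON less KD1 vs WT, as the closing values below show. Choosing genes high in both KD1 comparisons therefore favours small WT vs CON values. The comparison is not independent of the choice. In limma's moderated test over 24822 probes, 910 had an adjusted p under 0.05 (3.67%), 2.10% higher and 1.56% lower in WT. Among 134 11p genes tested, 4 did (2.99%), close to the share over all probes; 1 was higher and 3 were lower in WT. An unadjusted p under 0.05 was found for 22 of the 134 (16.4%) and for 16.3% of all probes.

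CSRP3 was lower in WT than in CON, by log2 values of -1.96 and -1.86 (mean -1.91, SE 0.24, limma adjusted p = 0.000673). BDNF, a neurotrophin gene, was lower in WT by -1.52 and -1.62 (mean -1.57, SE 0.24, limma adjusted p = 0.00267). Its KD1 vs CON mean was -0.09 ± 0.26 and its KD1 vs WT mean 1.595 ± 0.36, and its log2 signal was 7.29 and 6.82 in WT, 8.81 and 8.58 in CON, and 8.59 and 8.57 in KD1. Both clones thus stood above WT for BDNF. The probe A_24_P662366 (33215532 to 33215591), which has no gene name, had the same pattern, with -1.26 and -1.78 in WT vs CON (limma adjusted p = 0.00402) and means of -0.07 ± 0.02 against CON and 1.40 ± 0.21 against WT. C11orf41 was higher in WT, by 2.36 and 1.05 (mean 1.71, SE 0.30, limma adjusted p = 0.00642). None of the 4 followed the shared shift, but the rule left little room for it. A gene within 1.5-fold of both KD1 medians cannot differ this much between WT and CON when the comparisons nearly close. After normexp background correction and loess no 11p gene had an adjusted p under 0.05 in limma, with 17 (12.7%) at an unadjusted p under 0.05, against 14.6% of all probes. In the fits on separate channels with and without the replicate number as a block there was also none, with 22 and 19 (16.4% and 14.2%) at an unadjusted p under 0.05, against 16.3% and 14.3% of all probes.

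**Figure D5:**
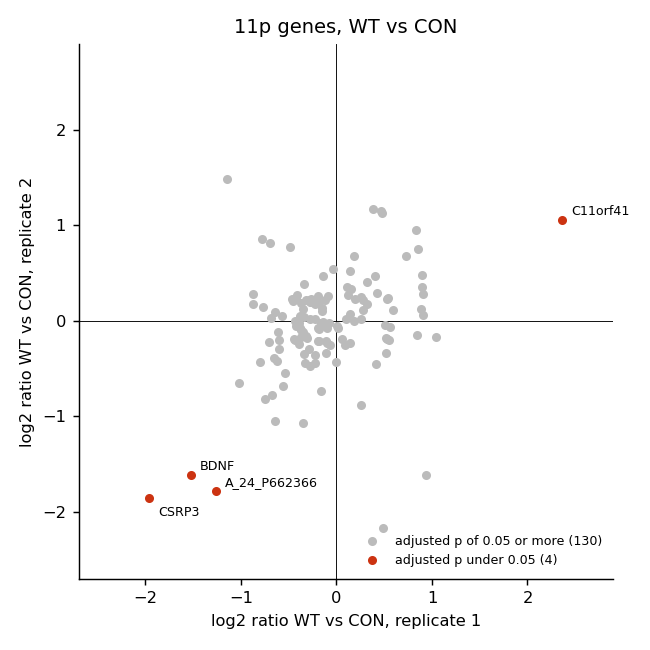
Log2 ratio WT vs CON of 134 11p genes in replicate 1 (x axis) and replicate 2 (y axis). The 4 genes with an adjusted p under 0.05 lie far from 0 in both replicates, and the other 130 surround 0.

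The 3 comparisons closed on each other within each replicate. The sum of KD1 vs WT and WT vs CON differed from KD1 vs CON by a median of 0.05 in replicate 1 and 0.07 in replicate 2, and by under 0.5 for 133 and 134 of the 134 genes. These gaps between arrays of the same extracts were smaller than the distances of 0.18 and 0.40 between replicates.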

How the data were processed

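Two-color Agilent arrays of 3 Rh30 cultures (2 replicates each, 12 arrays) were analyzed. Spots were extracted by the authors in Agilent Feature Extraction 10.5.1.1, and they deposited linear intensity values per spot (mean, background and lowess-normalized processed signals) and a log10 ratio, plus a table of log2 ratios. From the deposited processed intensities, the log2 ratio of the first over the second culture was taken for each spot. Spots flagged as outliers were left out, and the rest were averaged per probe, then per dye-swap pair. Measured genes had their brightest probe well above background in both channels of all 12 arrays. Precision is limited by the 2 replicates of each comparison, since the arrays of a dye-swap pair were averaged. Depositors' probe positions (NCBI36) were used; 135 of 240 gene names were matched by accession to current symbols of GRCh38.p14. The WT vs CON test used limma 3.58.1 (R 4.3.3): a linear fit of both replicate values with empirical Bayes moderation and Benjamini-Hochberg adjustment over 24822 probes. The fit was run on simulated data with independent noise: with 200 probes changed by 2 (log2), 100% were recovered with 17.4 false calls on average over 20 simulations. That change was larger than that of any 11p gene called in WT vs CON. Recovery of smaller changes, and errors shared between probes, were not covered. The false calls were a larger share of all simulated calls than the adjusted p limit of 0.05 allows, so that limit was somewhat lenient here. Separate-channel signals (Aquantile) were averaged per extract.

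The genes, roles and edges were chosen with earlier results of these data known. Named were genes above or below the shift, the 2 measured genes on each side of each edge, genes called in WT vs CON, the 2 brightest measured genes of each role list, MDK, PAX3 and FOXO1; others were named after their values were seen (E2F8, PEX16, ABCC8, ALKBH3, KCNC1, TSPAN18 and the neighbours of MDK). Alternatives were other background corrections and normalizations, other filters (including the 99th percentile of the negative controls), the deposited log2 table, all probes of a gene, single replicates, a 1.5-fold limit and other fits.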

Additional observations from a re-analysis of the deposited data

How the results depend on the processing

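The 11p median stayed above 0 in both KD1 comparisons under every setting tried. It moved by more than the spread of its replicates with normexp (offset 50) and loess (0.19 against CON and 0.23 against WT), with no filter on dim probes (0.10 and 0.17, over 240 genes, fewer of them measurable), and with RefSeq accessions only, a setting chosen after seeing the data (0.36 and 0.38). With a filter on the negative controls it was 0.31 in KD1 vs CON. Normexp and loess left 1 gene above the shift (CSRP3) and 1 below it (MDK); the cause was not tested. A limit of 1.5-fold gave 5 above and 5 below. Leaving out a replicate gave 1 to 4 above and 2 to 3 below: without replicate 2, SAA1, SAA2 and C11orf41 were lost, and the KD1 vs CON value of C11orf41 turned from -0.78 to 0.16 (-1.72 without replicate 1). SAA1 also missed the limit with median centring and with the negative control filter. The number of 11p genes called in WT vs CON was 0 with normexp and loess. On separate channels it was 0 with the replicate block and 0 with no replicate block. In a fit on 6 replicate values it was 2 (BDNF and A_24_P662366). Over all probes these fits called 0, 28, 17 and 249, against 910. The 11p number rose to 5 with no filter, where C11orf41 was not called, and to 6 with the mean of all probes. The adjusted p of BDNF ran from 0.000295 to 0.247 over the alternatives, and that of CSRP3 from 2.91e-05 to 0.361. The blocked medians were 0.30 in both KD1 comparisons. Deviations of same-numbered extracts correlated with 0.54 for CON and KD1, so these extracts shared part of their replicate differences, and the source was not tested. The correlation was -0.01 for CON and WT and -0.06 for WT and KD1. Precision is limited by 2 replicates a group, 1 residual degree of freedom per probe and, for dim probes, signals near background.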

Other observations

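Among the 106 genes of the stretch that were not measured in every culture, a few had a signal in 1 culture and none in at least 1 other. They were picked out after their values were seen. SAA4, a neighbour of SAA1 and SAA2 that encodes a constitutive serum amyloid, passed the background test on 3 of 8 arrays for KD1 and on none for CON or WT. Its log2 signal after separate-channel normalization was 2.42 and 4.94 in KD1, 2.38 and 2.53 in CON, and 1.89 and 2.49 in WT. Only the KD1 extract of replicate 2 thus stood apart. ACCS, an aminotransferase-like gene, passed it on 6 of 8 arrays for WT and on 0 of 8 for CON, so that WT was at least 2.22-fold higher. LOC100126784 passed on 4 of 8 arrays for KD1 and on 0 of 8 for WT, with KD1 at least 1.32-fold higher. U94903 passed on 4 of 8 arrays for WT and on 0 of 8 for CON, but its log2 bound was -0.06. Such a count of arrays alone therefore need not mean a difference. These bounds set the mean of the brighter culture against the lowest signal that was well above background on each array, or the probe's own where that was higher.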
